A study of Drosophila melanogaster with 4 samples.

Results

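The stretch of chromosome arm 3R from 27500001 to 27600000 (FlyBase release 5) is the part of cytological division 100 that holds tramtrack (ttk), and 22 of the 3110 peaks in the deposited list of Cmi binding sites had their midpoint there. It makes up 0.360% of the span of 3R between the outermost windows with a peak, and it held 3.21% of the 685 peaks of that arm and 4.32% of the bases they covered. The stretch was selected on the number of called peaks in it, being among the fullest of the arm, so its count, its crowding and its coverage are given as a description with no test. The peaks come from ChIP-seq, in which chromatin is immunoprecipitated with an antibody and the recovered DNA is sequenced, on Drosophila melanogaster embryos collected at 0 to 8 h. Both groups were from the strain Exd-GFP-13T, of genotype w; PBac{y[+]-attP-3B}VK00033, and carried a transgene of the genomic coding region of exd in which GFP takes the place of the stop codon. One group consists of 2 libraries precipitated with an affinity-purified rabbit polyclonal antibody raised against full-length Cmi, and the other of 2 libraries of input DNA. There was no untagged strain, no other antibody and no other stage, sex was not recorded, and whole embryos mix all cell types. The extraction protocol in the labels names another stock and a later collection of embryos, and the samples' own fields for stage and strain are followed here.

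Tramtrack is a transcriptional repressor with a BTB domain, through which such proteins pair with each other, and zinc fingers that bind DNA; alternative splicing gives forms that share the BTB domain and differ in their fingers. In the early embryo it is known to repress the pair-rule gene ftz, and later it holds back neuronal fate in supporting cells and in the eye, where the ubiquitin ligase partners Sina, Phyllopod and Ebi direct its destruction. Cmi (CG5591, listed as Lpt in the Release 6 gene table) belongs to the Trithorax-related complex, known as a methyltransferase for lysine 4 of histone H3 that works at enhancers. In the Release 6 gene table ttk lies on 3R between the long non-coding RNA gene lncRNA:CR34046 and CstF50, which encodes a subunit of the cleavage stimulation factor of mRNA 3′ end formation. The next genes on the CstF50 side are CG11563 and eEF1alpha2, the latter encoding an elongation factor of translation, and on the other side lie CG42693 and lncRNA:CR45052. That table is of a later build than the peaks, so these are names of neighbours only, and whether a given peak lies in ttk, in an intron of it or beside it was not analysed here.

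Cmi peaks occupied the lower and middle parts of the stretch in 4 groups, and the upper part was largely empty. With peaks chained where midpoints lay within 5 kb of each other, the groups held 4, 12, 4 and 2 peaks in order along the arm, so that none of the 22 peaks stood alone. The division rests on that distance, since chaining at 10 kb merged the first 3 groups into 1 of 20 peaks, while at 2 kb the largest group still held 12. Outside the stretch, 66.4% of the peaks of 3R had another peak within 5 kb. From the first to the last peak the groups spanned 65.7 kb, of which 28.3% lay under a peak. Over the whole 100 kb the peaks covered 18.6 kb, or 18.6%, compared with 1.55% of the span of the arm. The largest gap inside was 18.0 kb, between the third and the fourth group, and the last 25.5 kb of the stretch held no peak. The list gives no values for single libraries, so the depth is unknown, the agreement of the replicates was not analysed, and an interval without a peak is not shown to lack Cmi.

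**Figure D1:**
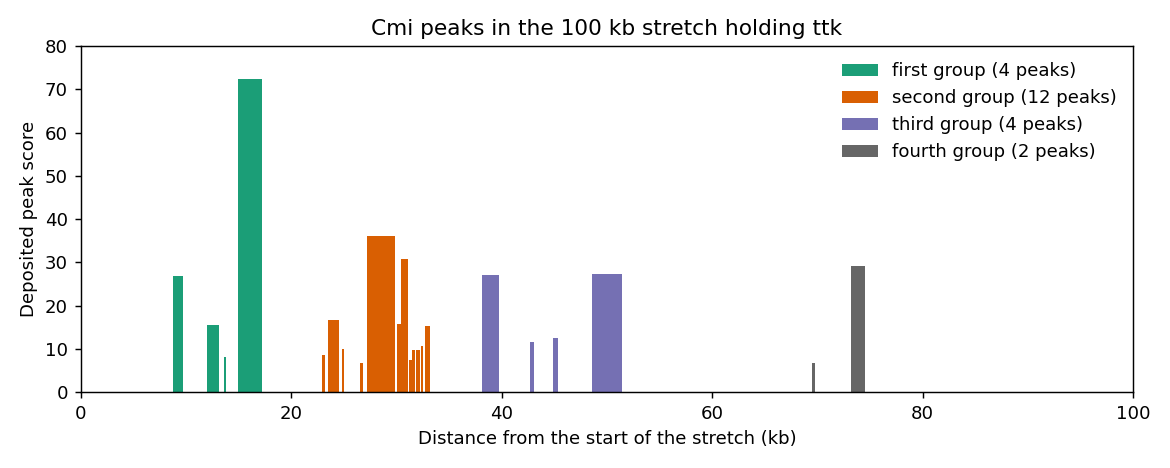
Each bar is 1 of the 22 deposited peaks, drawn to scale in width along the stretch (horizontal axis, kb from its start) and as high as its deposited score (vertical axis, no unit), with colours for the 4 groups. The highest peak, with a score of 72.4, closes the first group; the second group packs 12 peaks into 10.3 kb, and the upper 25.5 kb are empty.

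The first group held the peak with the highest score of the stretch. Its 4 peaks ran from 27508808 to 27517224, over 8.42 kb of which 54.2% was covered. The leading peak, at 27514908 to 27517224, was 2317 bp wide and had a score of 72.38. Only 22 of the 685 peaks of 3R scored higher than this one and 12 were wider. The other peaks of the group had lower scores. They lay at 27508808 to 27509698 (891 bp, score 26.87), at 27512015 to 27513131 (1117 bp, score 15.56) and at 27513620 to 27513858 (239 bp, score 8.11). The last of these is near the bottom of the arm, where 4.82% of peaks scored lower.

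The score is the peak caller's own value and carries no scale in the file. Values that recurred in at least 5 peaks numbered 84, and 77 of them lay within 0.0061 of the negative log10 of the Poisson probability of a whole number of reads or more over a background of 31.1 reads. No background more than 1 read away matched more than 11. The score is read here as −log10 of an unadjusted Poisson p-value. Among peaks scored over the same background, a larger score then stands for a higher pile of reads. Where the background differs, scores do not rank heights. The score was compared only within this list.

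The second group held more peaks than any other group of the arm. Among groups of 5 or more it was second by peaks per kb, with 1.16 against 1.28 for the group at 10563512 to 10567429. Its 12 peaks lay between 27522922 and 27533236, and 7122 of these 10315 bases, or 69.0%, were covered. The group took 10.3% of the length of the stretch and held 54.5% of its peaks, but only 38.2% of its covered bases, because most of its peaks were narrow. The widest, at 27527192 to 27529854, measured 2663 bp and scored 36.03, rank 2 in the stretch. Next to it, after a gap of 200 bp, a peak at 27530055 to 27530413 was 359 bp wide with a score of 15.75. The peak at 27530482 to 27531131 was 650 bp wide and scored 30.71, rank 3 in the stretch.

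From there to the end of the group the peaks were small and almost touched. They lay at 27531241 to 27531444 (204 bp, score 7.44), 27531528 to 27531741 (214 bp, score 9.77), 27531834 to 27532288 (455 bp, score 9.65), 27532352 to 27532559 (208 bp, score 10.7) and 27532749 to 27533236 (488 bp, score 15.3). Gaps among the last 8 peaks of the group, starting with its widest, ran from 63 to 200 bp, and these peaks covered 86.7% of 6.05 kb. The narrowest peak of the whole list was 201 bp wide and the smallest gap on the major arms was 50 bp, so several of these peaks and gaps are close to the smallest that the list holds. The lower part of the group was looser. It began at 27522922 to 27523263 (342 bp, score 8.68) and went on with 27523471 to 27524563 (1093 bp, score 16.64), 27524826 to 27525038 (213 bp, score 9.94) and 27526570 to 27526802 (233 bp, score 6.86), with a largest gap of 1531 bp.

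Of the 21 gaps between neighbouring peaks of the stretch, 9 were under 300 bp, and each of these lay in the second group. Elsewhere on 3R, 13.6% of 662 gaps were that short. Joining peaks with edges within 1 kb turned the 22 peaks into 11 regions. The longest of these joined 9 peaks of the second group into 1 block of 6667 bp, from 27526570 to 27533236.

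The other groups, the third and the fourth along the arm, were looser and held wide as well as narrow peaks. The third ran for 13.3 kb from 27538156 to 27551465 and was 39.9% covered. It opened with a peak at 27538156 to 27539759 (1604 bp, score 27.01) and closed with the widest peak of the stretch, at 27548577 to 27551465, which measured 2889 bp with a score of 27.32. Between them lay peaks at 27542706 to 27543043 (338 bp, score 11.61) and 27544843 to 27545316 (474 bp, score 12.48). The fourth group was a pair, at 27569442 to 27569722 (281 bp) and 27573198 to 27574550 (1353 bp). The first of this pair had the lowest score of the stretch, 6.75, and the second had 29.24, rank 4 in the stretch.

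By their medians, peaks of the stretch were not high for their width. The median width was 464.5 bp (quartiles 249.5 and 1111 bp, n = 22 peaks), close to the 471 bp of the other 663 peaks of 3R (quartiles 297 and 775 bp), and the median score was 13.89 (quartiles 9.68 and 27.0) against 14.36 (10.32 and 23.57). Both medians rested on the second group: the 10 peaks outside it had a median width of 1004 bp and a median score of 21.2, above those of the arm. The medians of the arm kept its own dense groups, so this sets unlike sets of peaks side by side. The widths were widely spread: 7 of the 22 peaks, or 31.8%, were wider than 1 kb, where the share among the other peaks of 3R was 15.5%. The same 7 peaks made up 70.0% of the covered bases of the stretch, 13.0 kb. Another 7 of the 22 peaks were at most 300 bp wide, against 173 of the other 663 peaks of 3R. Those 7 had scores from 6.75 to 10.7. Scores above the upper quartile of the arm, 23.77, were found in 7 of the 22 peaks, compared with 24.7% of the other peaks of 3R.

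In each range of width the median score of the stretch was below that of the other peaks of 3R. The ranges were chosen after the values had been seen, and single peaks went the other way. The peak of 2317 bp scored 72.38, above the median of the others over 2 kb. The peak of 650 bp scored 30.71, above the upper quartile of 21.99 for the others from 300 bp to 1 kb. Among peaks wider than 1 kb and up to 2 kb the median score was 21.8 in the stretch (n = 4 peaks) and 33.0 elsewhere on 3R (n = 92). Above 2 kb the 3 peaks of the stretch scored 72.38, 36.03 and 27.32, while the other 11 peaks of 3R of that width ran from 39.72 to 209.52, with a median of 56.4. The peaks of 2663 and 2889 bp therefore scored below every other peak of the arm over 2 kb. From 300 bp to 1 kb the medians were 13.89 (n = 8) and 15.75 (n = 387), and up to 300 bp they were 8.11 (n = 7) and 9.94 (n = 173). Across the 22 peaks score and width had a Spearman correlation of 0.84, and across the other peaks of 3R 0.77. Both quantities depend on the height of the reads in the caller, and neighbouring peaks share their libraries. Scores of 7 of the 22 peaks matched a whole number of reads over the background of 31.1 reads. The peak of 2663 bp was among them. The other peaks of the stretch, those of 2317 and 2889 bp included, did not match at the tolerance used. Elsewhere on 3R 70.1% of the scores matched. Over which background the unmatched peaks were scored was not tested. In comparisons that include such peaks, lower scores are therefore not shown to be lower heights.

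**Figure D2:**
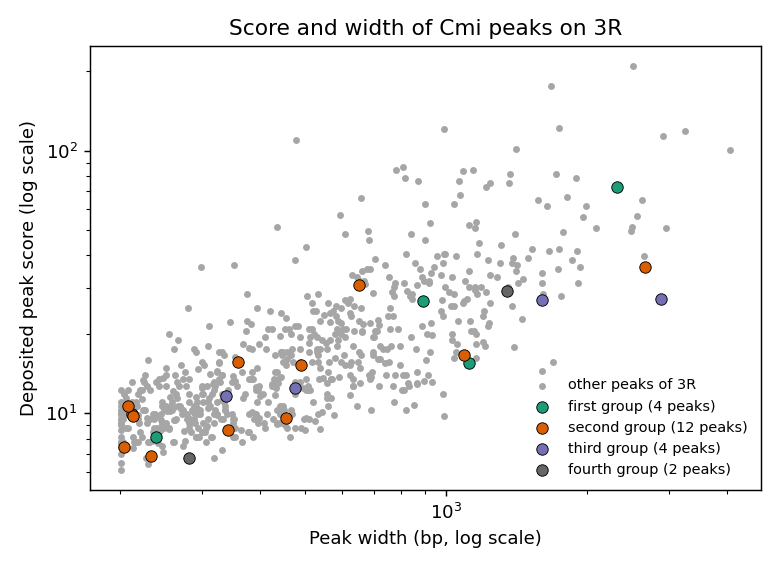
Each point is a peak of 3R, with its width in bp (horizontal axis, log scale) and its deposited score (vertical axis, log scale, no unit); grey points are the 663 peaks outside the stretch and coloured points the 22 inside it, by group. The coloured points follow the grey cloud, with the peaks of 2663 and 2889 bp below every grey point wider than 2 kb.

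The scores in the stretch also departed from the series that a single background gives. On 3R outside the stretch, 70.1% of the scores (95% Wilson interval 66.5 to 73.5) lay within 0.0061 of a whole read height over the genome-wide background. In the stretch this held for 7 of 22 peaks, or 31.8% (16.4 to 52.7). The intervals cover counting error of peaks only and take peaks as independent, which neighbours are not. They are no test of the difference. All 7 belonged to the second group, where they made up 7 of 12 peaks, and none of the 10 peaks of the other groups was on the series. With a tolerance of 0.015 the shares were 40.9% and 74.1%. The peaks this added in the stretch were 239 bp wide in the first group and 2889 bp wide in the third. The split by group therefore rests on the tolerance. Other windows of a fixed 100 kb grid on 3R with at least 10 peaks numbered 11. Among them the share ran from 0 to 88.2% with a median of 64.7%, and 2 were lower than the stretch. MACS, which the file names as the caller, can score a peak against a local background in place of the genome-wide one; the local background here was not analysed.

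For the peaks on the series the score, under the reading given above, translates into a height that is inferred and not measured. The widest peak of the second group stood at 125 reads, 4.02 times the background, and the peak at 27530482 to 27531131 at 116 reads, 3.73 times. The remaining 5 stood between 2.12 and 2.80 times the background: the peak at 27531241 to 27531444 was lowest at 66 reads, and the one at 27530055 to 27530413 was highest of these at 87 reads. No height is given for the peak with the score of 72.38, which was off the series.

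The stretch was set against every other 100 kb stretch of 3R, sliding by 10 kb. None of 2770 held more than 22 peaks, and 4, or 0.144%, held as many. Of these 4, 2 are shifts of the stretch itself by 10 and 20 kb, and the other 2 lie at a single place, between 17390001 and 17500000. The median of the other stretches was 1 peak and their mean 2.46, and 978 of them, or 35.3%, held none. By coverage, 4 stretches exceeded the 18.6% of the stretch and 2 tied with it, 0.217% in all. The 4 higher ones lay at one place, between 12010001 and 12140000, and reached 21.1%. Overlapping stretches share peaks, so these shares are ranks and not probabilities.

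**Figure D3:**
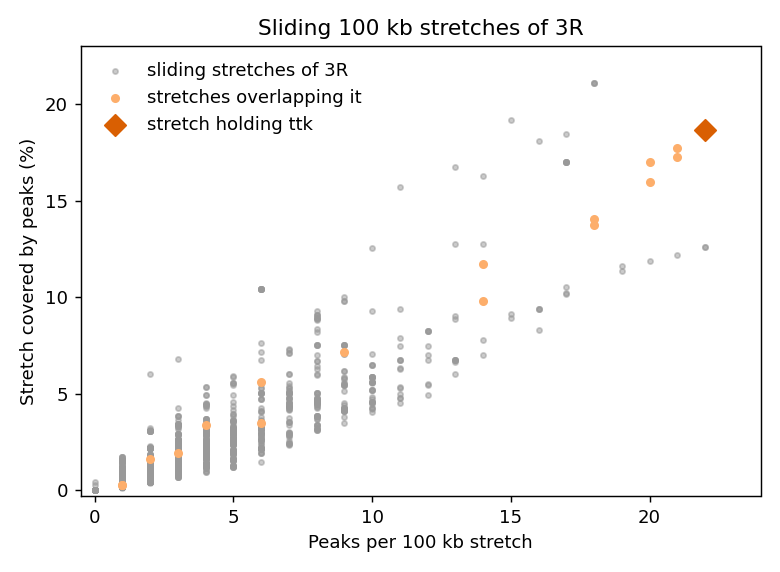
Each point is a 100 kb stretch of 3R, taken every 10 kb, with its number of peaks (horizontal axis) and the percentage of its bases under a peak (vertical axis); the diamond is the stretch holding ttk and the light orange points are stretches that overlap it. The diamond lies at 22 peaks and 18.6%, with no grey point above it in both measures.

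Rank depended on what was counted. After peaks within 1 kb were joined, the stretch held 11 regions. By that count 11 other stretches held more, up to 13, and 13 stretches tied with it. As many or more were found at 5 other places on the arm. Counting only peaks wider than 1 kb, the stretch held 7, which no other stretch exceeded and 2 other places on the arm equalled. Counting only scores above the upper quartile, it also held 7, and 13 stretches held more, up to 10, while as many or more were found at 2 other places.

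The stretch was then set beside the 3 other windows with most peaks on a fixed 100 kb grid of 3R. The window from 17400001 to 17500000 also held 22 peaks, but they covered 12.6%, only 1 was wider than 1 kb, and they fell into 7 groups, the largest of 9 peaks. Its median width of 448.5 bp and median score of 13.6 were near those of the stretch. The window from 21800001 to 21900000 held 17 peaks in 2 groups, which covered 17.0%, with 7 wider than 1 kb, a median width of 838 bp, a median score of 25.7 and a highest of 56.4. The window from 12000001 to 12100000 held 17 peaks with 18.4% covered, in 6 groups of at most 5 peaks; 6 were wider than 1 kb, the median width was 768 bp, the median score 16.2 and the highest 176.1. The median gap between neighbours was 488 bp in the stretch, and 1313, 1705 and 2123 bp in these windows. These windows were picked for their counts, so the differences are described and not tested.

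**Figure D4:**
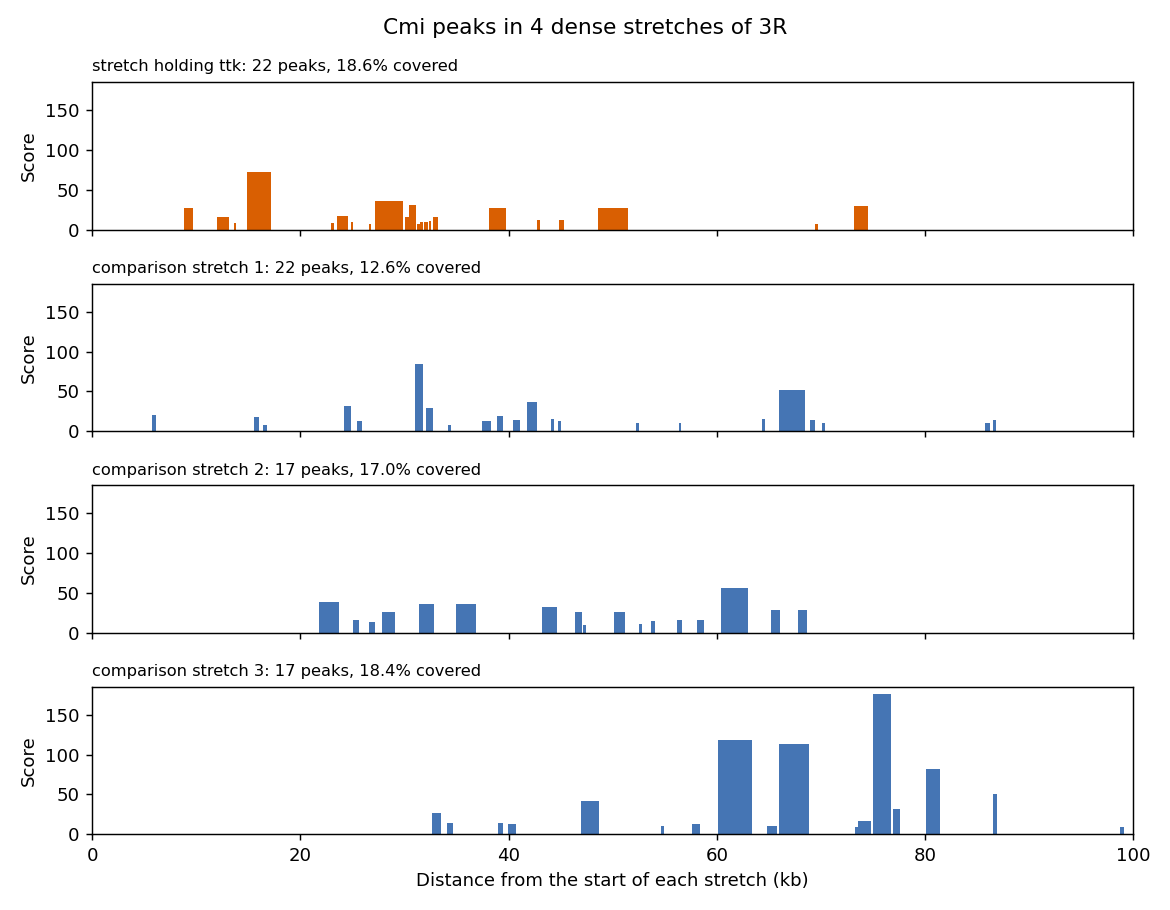
The peaks of 4 windows of 100 kb on 3R, each bar drawn to scale in width (horizontal axis, kb from the start of the window) and as high as its deposited score (vertical axis, no unit), with the stretch holding ttk on top and below it the windows starting at 17400001, 21800001 and 12000001. The top panel has the tightest pack of peaks, a median gap of 488 bp, and the bottom panel the highest score, 176.1.

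Groups of 5 or more peaks numbered 18 on 3R and took up 118 of its peaks. Among them the second group of the stretch was first by number of peaks, ahead of a group of 11 at 21843187 to 21868686, and second by coverage, behind a group of 5 at 10563512 to 10567429 that was 77.3% covered. The other 17 groups had a median of 6 peaks and a median coverage of 38.1%. Its highest score was 36.03, and 10 of the 17 contained a higher one.

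The stretch lay near the end of the arm, with intervals free of peaks on both sides. The nearest peak below it lay at 27452354 to 27452787 (score 10.32), 56.0 kb before the first peak of the stretch, and the nearest above it at 27620093 to 27620381 (score 10.03), 45.5 kb after the last. The peaks just inside the borders, with scores of 26.87 and 29.24, had midpoints 9.25 and 26.1 kb from them, so no peak lay across a border. Below, 383 kb without a peak separated 27048839 from 27431907. Of the 30 peaks from there to the last peak of 3R, which ended at 27764000, 22 were in the stretch, 5 below it and 3 above it. Those below included a peak at 27434182 to 27434885 with a score of 38.68. In the stretch only the highest peak scored above that.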

How the data were processed

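The authors deposited 1 list of peaks in GFF3 form, with a start, an end and a score for each peak and no values per library; per the file headers its positions are on FlyBase release 5 and MACS made the calls. The submitters' processing notes name CASAVA (versions 1.7.0.2 and 1.7.0.3), BWA, MACS2 and the build BDGP5. Thresholds, and whether replicates were pooled, were not given in the sources used. Positions are 1-based. The stretch, its comparison windows and the measures were chosen with earlier results of these data known. Peaks were placed by midpoint, chained within 5 kb, and joined where edges lay within 1 kb for an alternative count. Sliding stretches of 100 kb were taken every 10 kb between the outermost windows of 3R with a peak. No p-value was computed, since the design offers no independent test of this stretch. The steps were tested on simulated data with planted peaks and a planted score series. Each peak of the stretch is named. No genome of release 5 was used here, so no sequence is shown, no peak is assigned to a gene, and the planned comparison with genes that act with ttk was not run. Python 3.11.15, pandas 2.3.3, scipy 1.17.1 and matplotlib 3.10.9 were used.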

Additional observations from a re-analysis of the deposited data

How the results depend on the processing

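In all, 23 alternatives were computed, and 14 stayed within the 95% interval of a share, or within 1.5 times a count or median. Such intervals take the counted items as independent, which overlapping stretches and neighbouring bases or peaks are not. The count of 14 is therefore a rough yardstick and not a test of stability. The restriction to non-overlapping stretches and the tolerance of 0.015 were added once the data had been seen. Counting peaks joined within 1 kb gave 11 regions and lowered the share of stretches with fewer to 99.1%. Only peaks scoring above the median of 3R gave 11 peaks and 15.4% covered. Stretches of 200 kb gave 99.1% with less covered. The largest group held 20 peaks with chaining at 10 kb, which merged the first 3 groups, and 4 regions when peaks were joined first, which merges peaks by construction. Stretches of 50 kb were slid by 5 kb, to meet the same centre. Without the second group the median width was 1004 bp and the median score 21.2. No paired analysis was possible because libraries have no separate values in the deposited list, and for the same reason no replicate could be left out. The depth is unknown.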
